A study of Mus musculus with 84 samples.

Results

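The subject is 10 mouse genes of the antioxidant defence that is tied to the transcription factor NRF2: Nqo1, Gclc, Gclm, Txnrd1, Srxn1, Hmox1, Osgin1, Nox4, Gsta1 and Gstm3. They were chosen by symbol, and each symbol matched 1 Ensembl identifier among the 48794 listed in the deposited tables. All 10 passed the filter on low read numbers in liver, where 15964 genes were tested, and 9 passed it in epididymal white adipose tissue (eWAT), where 18536 were tested. The gene that did not pass in eWAT was Gsta1, and it is given there as reads with no test.

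The libraries were bulk RNA-seq of liver and eWAT from male C57BL/6J mice made obese on a 60% high-fat diet and kept on it, with treatment starting at 22 weeks of age. Each mouse received a subcutaneous injection every day for 30 days. The 7 groups were vehicle, BI456906 at 3, 10, 20 or 30 nmol/kg, and semaglutide (titled EX10970 in the sample names) at 20 or 100 nmol/kg. BI456906 is a peptide that activates both the glucagon receptor and the GLP-1 receptor, and semaglutide activates the GLP-1 receptor alone. Groups held 11 mice, and 6 libraries per group and tissue were analysed, 84 in all. All groups, vehicle included, share the diet, the sex and the strain, so there is no lean reference. The labels do not say which liver and eWAT libraries came from 1 mouse, nor that the 6 libraries of a group came from 6 mice, so p-values measure the spread between these libraries.

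NRF2, encoded by Nfe2l2, is held in the cytosol and marked for breakdown by its partner KEAP1 until oxidants or electrophiles modify KEAP1, after which NRF2 enters the nucleus, pairs with a small MAF protein and binds antioxidant response elements near its target genes. In liver these targets supply glutathione, recycle thioredoxin and conjugate reactive compounds for export. BACH1 competes for the same elements and represses Hmox1 in particular. Nqo1, Gclc, Gclm, Txnrd1, Srxn1 and Hmox1 are the targets most often used to read NRF2 activity, Gsta1 and Gstm3 encode glutathione S-transferases, Osgin1 is an oxidative stress-induced growth inhibitor, and Nox4 encodes an NADPH oxidase that makes hydrogen peroxide rather than removing it.

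The sequences below are shown because the antioxidant response element is the feature that defines this pathway. The promoter windows of RefSeq (build GRCm38.p6, up to 300 bases, most of them before a transcription start) were searched on both strands for the element's core, TGACNNNGC, and for the related AP-1 type site TGAGTCA. Of the 10 genes, 8 had a window, and Gclc and Hmox1 had no entry. The 8 genes had 10 windows, since RefSeq lists 3 starts for Txnrd1. The core was present in 3 of the 10, 1 each of Gclm, Srxn1 and Txnrd1, and in 12.4% of all 32851 windows. By gene that was 3 of 8, beside 13.99% of symbols. The printed windows of Txnrd1 and Osgin1 lie at a RefSeq start inside the GENCODE gene given below. In each of the 3, the letters lie on the strand opposite to the gene's, so the printed strand shows the reverse complement, in capitals.
Gclm, chr3:122245415-122245439 (+), first capital 134 bases before the start: tcccgggcGCACCGTCAactctcac
Srxn1, chr2:152105544-152105568 (+), first capital at base 29, counting the start as base 1: agtgggcaGCTAGGTCAgagtgaga
Txnrd1, chr10:82859106-82859130 (+), first capital 92 bases before the start: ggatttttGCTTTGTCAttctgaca
The AP-1 type site was present in 2 of the 10 windows, of Osgin1 and Srxn1, and in 5.20% of all windows. Its letters are in capitals below, again as the reverse complement for Osgin1.
Osgin1, chr8:119437042-119437064 (+), 97 bases before the start: gcccctgcTGACTCAcgcttatg
Srxn1, chr2:152105414-152105436 (+), 102 bases before the start: ggagggccTGAGTCAccacgctg
Srxn1, chr2:152105471-152105493 (+), 45 bases before the start: attcacccTGAGTCAgcggccgg
TGACTCA, the reverse complement of the AP-1 type site, can open a match to the core, but no printed match counts for both. A match in letters is a description of the window and says nothing about binding, and the genes without one may hold it outside the window.

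Sequencing depth and sample makeup were as follows. Reads assigned to genes ranged from 21676902 to 53869104 per liver library (median 43179390) and from 37573004 to 53996914 per eWAT library (median 46475069). Levels are given as deposited TPM, a share of all transcripts that is scaled for gene length and depth. The liver libraries carried summed hepatocyte markers (Alb, Apoa1, Ttr, Serpina1a and Fgb) of 67009 to 107105 TPM, and the eWAT libraries summed adipocyte markers (Adipoq, Plin1, Fabp4, Cidec and Lipe) of 10395 to 33542 TPM, so both tissue labels were borne out by their markers. Several eWAT libraries also held hepatocyte transcripts: their summed hepatocyte markers spanned 20.2 to 5657 TPM in vehicle (median 1512 TPM). In the 6 treated groups the medians were 81.3 to 267 TPM, and single libraries reached 2796 TPM. Epididymis markers summed to 4.79 TPM at most in any eWAT library. In bulk tissue, fewer cells of a type and less RNA per cell cannot be told apart.

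In liver, BI456906 at 30 nmol/kg lowered 6 of the 10 genes and raised 1. Gsta1, Gstm3, Osgin1, Nox4, Nqo1 and Gclm fell and Txnrd1 rose by limma/voom, at a threshold of 0.05 on the p-value adjusted over all genes tested (false discovery rate, FDR). In the same comparison 29.9% of all tested genes fell and 28.9% rose. The median log2 fold change of the 10 was -0.59, beside -0.03 for all genes tested. The 4 with the largest falls, Gsta1, Gstm3, Osgin1 and Nox4, were those whose 6 treated libraries all lay below the 6 vehicle libraries. How many of all tested genes separated in this way was not counted. Gclc, Srxn1 and Hmox1 did not pass. Every comparison with vehicle below uses the same 6 vehicle libraries.

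**Figure D1:**
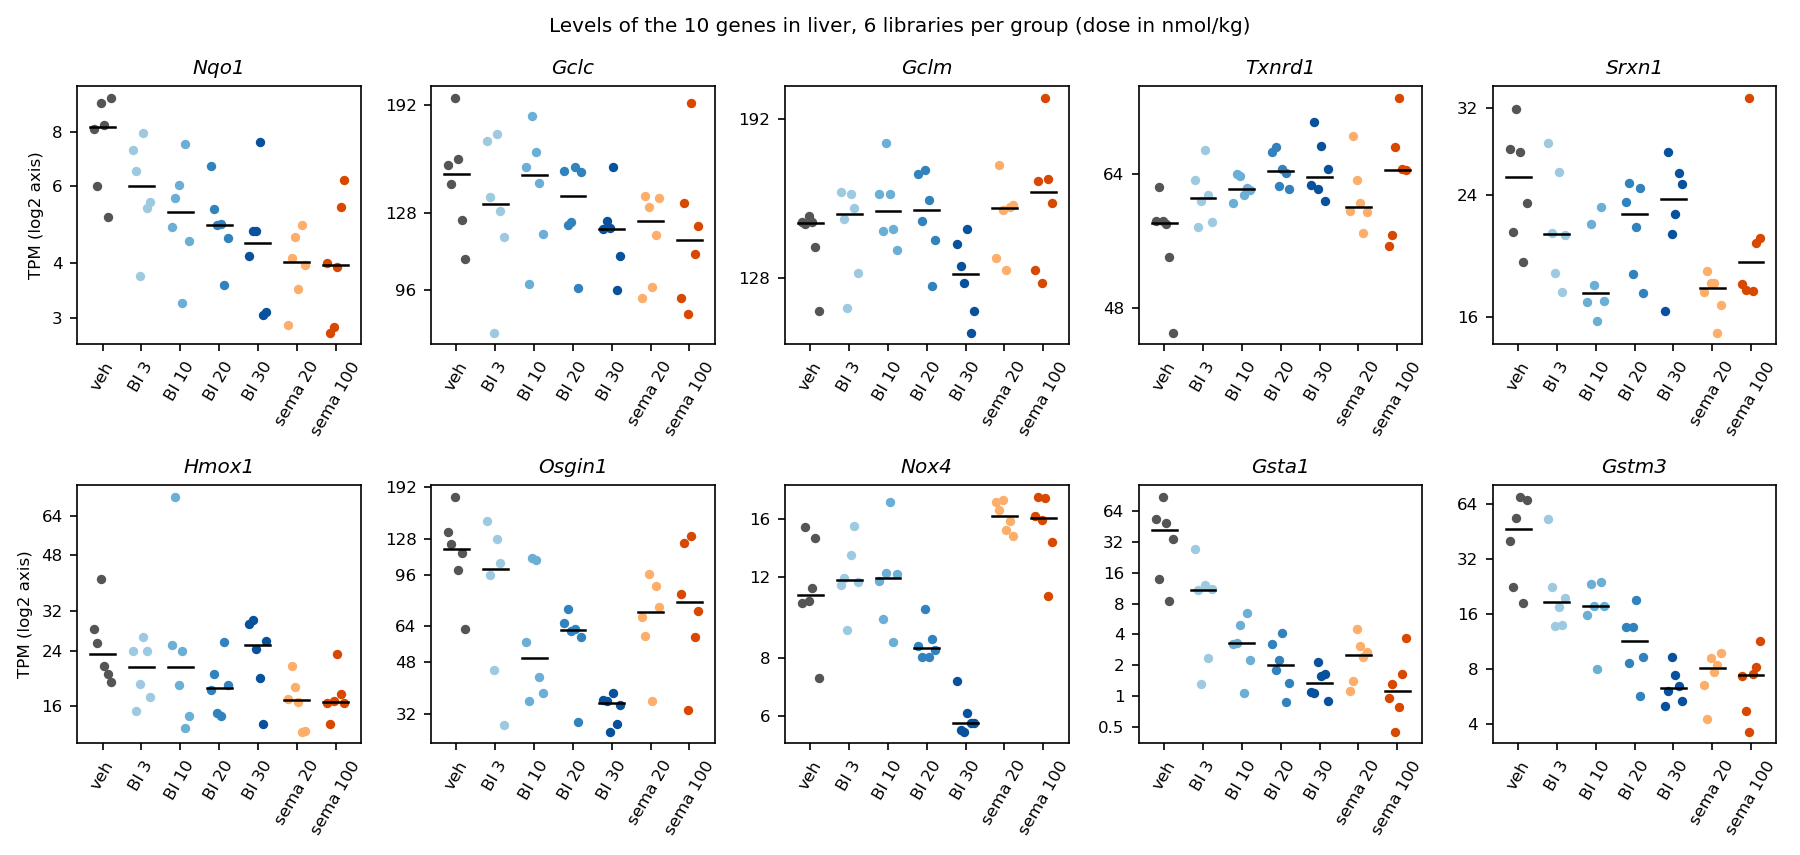
Level of each of the 10 genes in liver (TPM, log2 axis) in the 42 libraries, 6 per group, for vehicle (veh), BI456906 (BI) at 3, 10, 20 and 30 nmol/kg and semaglutide (sema) at 20 and 100 nmol/kg. Points are libraries and bars are group medians. Gsta1 and Gstm3 descend under both compounds, whereas Nox4 descends only on the BI456906 side, to a median of 5.80 TPM against 16.1 TPM with 100 nmol/kg semaglutide.

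Nqo1, on chromosome 8 (107388225-107403206, minus strand, GRCm38 with GENCODE M21, as for the positions of the other genes, all of which are protein coding), encodes the quinone reductase that gives the pathway its standard readout. Its liver level was low, at 5.09, 8.20 and 9.56 TPM (lowest, median and highest of 6) with vehicle. With 30 nmol/kg BI456906 the values were 3.04, 4.45 and 7.57 TPM, and 5 of the 6 libraries lay below every vehicle library. The fall was -0.85 on the log2 scale (SE 0.19, limma/voom FDR 0.000246), and it stood under every alternative run, between -0.99 and -0.67. Semaglutide gave falls of -0.999 at 20 nmol/kg (FDR 7.16e-05) and -0.98 at 100 nmol/kg (FDR 8.55e-05). At 20 nmol/kg the 6 semaglutide values, 2.88 to 4.88 TPM, did not overlap the vehicle values. Nqo1 thus fell with either compound, and the lower doses of BI456906 gave mean levels of 6.04, 5.29 and 4.99 TPM at 3, 10 and 20 nmol/kg.

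Gclc and Gclm encode the catalytic and the modifier subunit of glutamate-cysteine ligase, the rate-limiting enzyme of glutathione synthesis. Gclc (chromosome 9, 77754535-77794485, plus strand) was at 108, 148 and 197 TPM with vehicle and at 96.1, 121 and 152 TPM with 30 nmol/kg BI456906. These ranges overlapped, and the difference of -0.33 (95% interval -0.65 to -0.0011, limma/voom FDR 0.0787) did not pass. It was -0.36 and -0.33 with 20 and 100 nmol/kg semaglutide, with FDRs of 0.0647 and 0.0824, so Gclc was lower by a like amount in 3 groups without passing in any. With sample quality weights it passed in all 3 (FDRs 0.0124, 0.00592 and 0.0161).
Gclm (chromosome 3, 122245557-122270732, plus strand) was one of the steadiest genes of the set. It was at 118, 147 and 150 TPM with vehicle and at 111, 129 and 145 TPM with 30 nmol/kg BI456906, with overlapping ranges. The fall of -0.20 (SE 0.06, limma/voom FDR 0.00784) was small, and it no longer passed when log2(TPM + 1) was tested in place of the deposited read signal (FDR 0.23). With 3, 10 or 20 nmol/kg BI456906 and with semaglutide, Gclm moved by between -0.03 and 0.12 and did not pass. Gclm overlaps the pseudogene Gm6061 and the antisense gene Gm17494, and 3.09% of its 100-base transcript windows also occur in transcripts of other genes, so its level is less certain than that of Gclc.

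Txnrd1, the cytosolic thioredoxin reductase, was the only gene of the 10 that rose in liver with BI456906. Its liver values were 45.5, 57.7 and 62.3 TPM with vehicle and 60.4, 63.6 and 71.6 TPM at 30 nmol/kg. The rise was 0.16 (SE 0.06, limma/voom FDR 0.0141), and the ranges overlapped. It did not pass with library size in place of TMM scaling (FDR 0.183) or without 30 nmol/kg library 2 (FDR 0.0597). Txnrd1 (chromosome 10, 82833951-82897712, plus strand) overlaps Eid3 on the same strand and Gm38560 and Gm47073 on the other.
Srxn1, or sulfiredoxin, which repairs over-oxidised peroxiredoxins (chromosome 2, 152105516-152111376, plus strand), showed no dose order. Its means were 25.2 TPM with vehicle and 22.05, 18.6, 21.7 and 23.03 TPM at the 4 rising doses of BI456906. It fell at 10 nmol/kg alone in that arm (-0.55, limma/voom FDR 0.0015), while at 30 nmol/kg the difference was -0.23 (95% interval -0.50 to 0.05, FDR 0.148). With sample quality weights Srxn1 also passed at 3, 20 and 30 nmol/kg (FDRs 0.0314, 0.00474 and 0.0132). At 20 nmol/kg it passed without vehicle library 2 or 5 (FDRs 0.0439 and 0.0368) or without 20 nmol/kg library 2 (FDR 0.0420). Semaglutide at 20 nmol/kg gave 15.2, 17.6 and 18.6 TPM, all below the lowest vehicle value of 19.2 TPM, a fall of -0.62 (FDR 0.000319). At 100 nmol/kg it fell by 0.38 (FDR 0.0210), a call that was lost without vehicle library 3 (FDR 0.0649) or without semaglutide library 4 (FDR 0.0555), and on either log2(TPM) scale (FDR 0.137).

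Hmox1, heme oxygenase 1, breaks heme down to biliverdin, iron and carbon monoxide (chromosome 8, 75093621-75100589, plus strand). Its liver values were 19.1, 23.5 and 40.3 TPM with vehicle and 14.1, 25.02 and 30.02 TPM with 30 nmol/kg BI456906, a difference of -0.16 (95% interval -0.64 to 0.32, limma/voom FDR 0.581). At 3, 10 and 20 nmol/kg the differences were -0.32, -0.19 and -0.53 (FDRs 0.396, 0.560 and 0.0716). Hmox1 passed at 10 nmol/kg without library 2 of that dose (FDR 0.0369), and at 20 nmol/kg without library 5 of that dose (FDR 0.0428) or with sample quality weights (FDR 0.0131). Semaglutide at 20 and 100 nmol/kg gave means of 16.6 and 17.4 TPM, falls of -0.69 (FDR 0.0215) and -0.60 (FDR 0.0408). The first was lost without vehicle library 3 (FDR 0.0717). The second was lost without any 1 of 8 libraries, with FDRs up to 0.123 (without vehicle library 3). One library of 10 nmol/kg BI456906 (replicate 2) stood at 73.6 TPM, with the highest summed Kupffer cell markers (Clec4f, Vsig4, Timd4 and Cd5l) of any liver library, at 343 TPM. Over the 42 liver libraries, which share a sequencing run, Hmox1 and that marker sum had a Pearson r of 0.77 (Spearman rho 0.78), and r was 0.82 with group means removed. Of the 4 Kupffer cell markers, 1 fell under 20 nmol/kg semaglutide, a group in which Hmox1 fell too. None passed under 100 nmol/kg semaglutide, where Hmox1 also fell, or under any dose of BI456906. The part of Kupffer cells in the Hmox1 level was not tested.

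Osgin1 (chromosome 8, 119434124-119446256, plus strand) had the largest fall of the 10 genes in liver at 30 nmol/kg BI456906 after Gsta1 and Gstm3. The values were 62.4, 118 and 178 TPM with vehicle, and 27.7, 34.8 and 37.8 TPM with 30 nmol/kg BI456906. Every treated library was below every vehicle library, and the SD over the 6 libraries narrowed from 38.4 to 3.92 TPM around means of 119 and 33.3 TPM. The fall was -1.83 (SE 0.34, limma/voom FDR 1.33e-05), a 3.57-fold lower level, and it ranged from -1.97 to -1.72 over the alternatives. The intermediate doses were spread widely, with 29.2, 101 and 147 TPM at the lowest dose. The 10 nmol/kg libraries held 35.4, 49.7 and 110 TPM, and those of 20 nmol/kg held 29.9, 62.045 and 73.5 TPM. Falls of -1.07 at 10 nmol/kg (FDR 0.0111) and -1.11 at 20 nmol/kg (FDR 0.0066) passed, and -0.56 at 3 nmol/kg did not (FDR 0.283).
Semaglutide left Osgin1 between vehicle and the highest BI456906 dose. At 20 nmol/kg it was at 35.3, 71.6 and 96.9 TPM, and at 100 nmol/kg at 32.9, 77.2 and 131 TPM, both overlapping vehicle. The first difference, -0.84, passed at an FDR of 0.0382 and was lost when any 1 of 7 libraries was left out, with FDRs up to 0.124. The second, -0.64 (95% interval -1.33 to 0.05), did not pass (limma/voom FDR 0.118).

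Nox4 (chromosome 7, 87246096-87398710, plus strand) moved in opposite directions under the compounds. The study named Nox4 from these same samples, so its direction here is not independent evidence. Its liver values were 7.26, 11.0 and 15.4 TPM with vehicle. At 3 and 10 nmol/kg BI456906 the means, 12.2 and 12.01 TPM, were close to the vehicle mean of 11.6 TPM, with differences of 0.04 and -0.07 that did not pass. At 20 nmol/kg the values were 8.07, 8.41 and 10.2 TPM, and at 30 nmol/kg 5.55, 5.80 and 7.13 TPM. The fall was -0.52 at 20 nmol/kg (SE 0.15, limma/voom FDR 0.0035) and -1.03 at 30 nmol/kg (SE 0.15, FDR 3.14e-07), and at the higher dose no library overlapped vehicle. The fall at 30 nmol/kg stood under all alternatives, between -1.12 and -0.82.
With semaglutide the Nox4 values were 14.7, 16.3 and 17.6 TPM at 20 nmol/kg and 10.9, 16.1 and 17.9 TPM at 100 nmol/kg, with 4 of 6 libraries in each group above every vehicle library. The rises of 0.41 (FDR 0.0165) and 0.34 (FDR 0.0432) were less firm than the fall: the first was lost without vehicle library 6 (FDR 0.0663), and the second was lost without any 1 of 8 libraries, with FDRs up to 0.147, and with library size in place of TMM scaling (FDR 0.0732). From lowest to highest, the group means ran from 5.99 TPM (30 nmol/kg BI456906) through 8.67 (20 nmol/kg), 11.6 (vehicle), 12.01, 12.2, 15.5 and 16.3 TPM (20 nmol/kg semaglutide). The middle 3 neighbours, vehicle and 10 and 3 nmol/kg BI456906, did not differ beyond their spread.

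**Figure D2:**
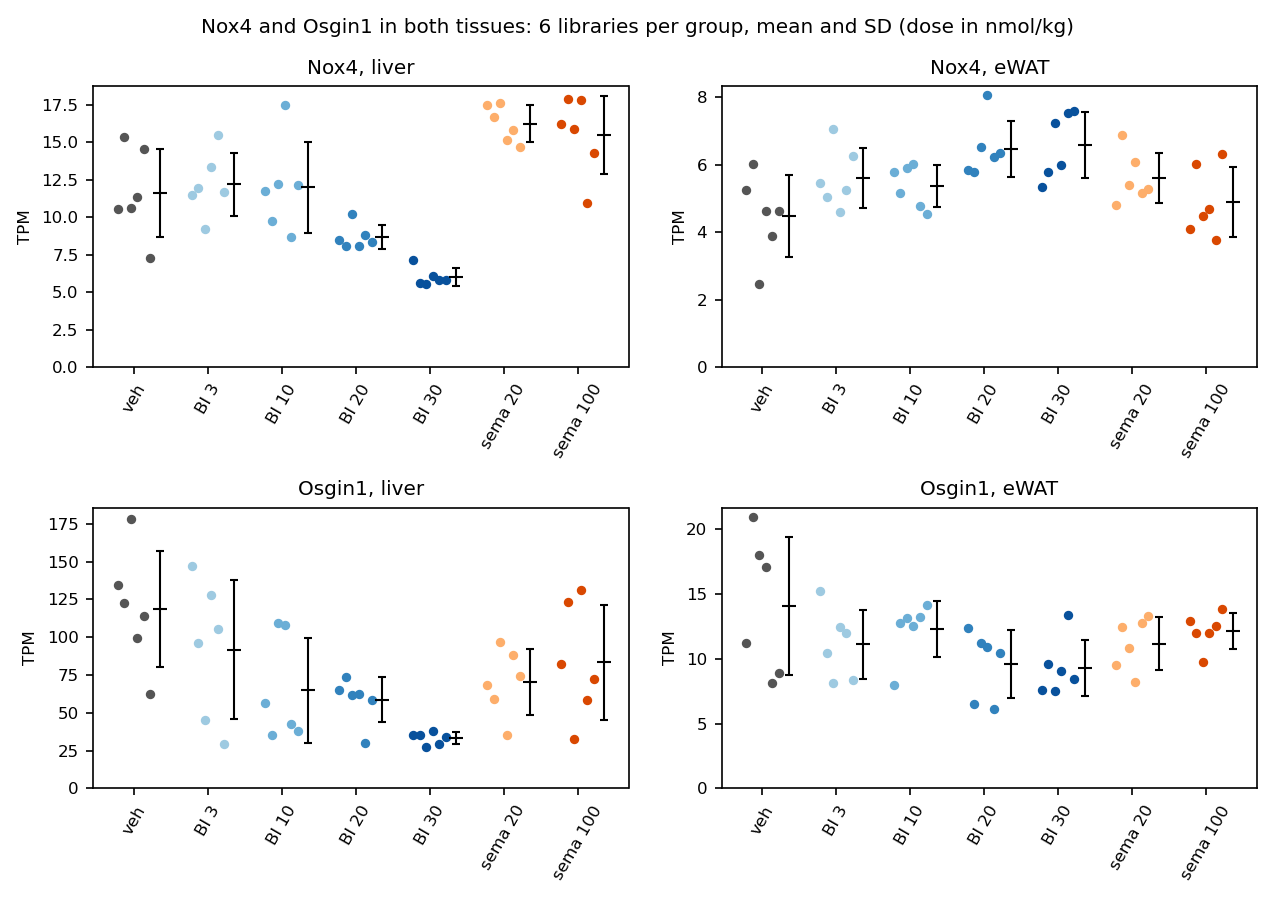
Level of Nox4 (top) and Osgin1 (bottom) in liver (left) and eWAT (right), in TPM on linear axes from 0, for the 7 groups of 6 libraries. Points are libraries, and the bar beside each group is the mean with its SD. In liver Nox4 falls to 5.99 TPM at 30 nmol/kg BI456906 while in eWAT it reaches 6.58 TPM, its highest group mean there.

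Gsta1 and Gstm3, an alpha and a mu class glutathione S-transferase, showed the largest falls, and they fell with both compounds. Gstm3 (chromosome 3, 107963696-107969283, minus strand) was at 18.4, 47.01 and 70.2 TPM with vehicle and at 5.03, 6.31 and 9.30 TPM with 30 nmol/kg BI456906. The ranges did not overlap, and the fall was -2.63 (SE 0.36, limma/voom FDR 8.51e-08). It had already passed at 3 nmol/kg (-0.99, FDR 0.0188), where 1 library, replicate 1, stayed at 52.8 TPM against 13.8 TPM for the lowest, and where leaving out vehicle library 3, 4 or 6 lost the call (FDRs 0.0510, 0.0575 and 0.0782). Semaglutide at 20 and 100 nmol/kg gave means of 7.68 and 7.18 TPM, falls of -2.49 (FDR 5.12e-07) and -2.65 (FDR 2.75e-07).
Gsta1 (chromosome 9, 78230656-78242684, plus strand) ranged widely among the vehicle libraries, from 8.54 to 88.0 TPM with a median of 41.3 TPM. With 30 nmol/kg BI456906 the values were 0.89, 1.35 and 2.17 TPM, which is 9 to 25 reads per library. All treated libraries lay below all vehicle libraries at 10, 20 and 30 nmol/kg BI456906 and at both semaglutide doses. The fall was -4.61 at 30 nmol/kg BI456906 (SE 0.79, FDR 5.03e-06) and -3.94 and -4.80 with 20 and 100 nmol/kg semaglutide (FDRs 1.31e-05 and 1.07e-05, limma/voom). Gsta1 is hard to separate from its neighbours: 80.6% of its 100-base transcript windows (689 of 855) also occur in transcripts of Gm3776, Gsta2 or Gm10639. The near copies Gsta2 and Gm10639 fell too, from 33.7 to 13.4 TPM and from 6.15 to 0.18 TPM in the group means. Gm3776, which shares more of those windows than either, was not analysed here, so the fall cannot be assigned to 1 copy. In Gstm3, 13.8% of windows are shared.

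The pair fell along with other changes in the libraries. Gsta1 and Gstm3 had a Pearson r of 0.90 over the 42 liver libraries, and Nqo1 had r of 0.83 with Gstm3 and 0.81 with Gsta1. All 5 stellate cell or fibroblast markers (Lrat, Dcn, Col1a1, Pdgfrb and Des) fell at 30 nmol/kg BI456906, their sum spanning 130 to 258 TPM with vehicle and 117 to 187 TPM at that dose, and the sum had r of 0.66 with Gsta1 and 0.64 with Gstm3. Macrophage markers (Adgre1, Cd68, Csf1r, Lyz2, Itgax and Trem2) fell in 4 of 6, with sums of 94.1 to 193 TPM and 97.2 to 110 TPM. The macrophage sum had r of 0.49 with Gsta1 and 0.57 with Gstm3 (0.46 and 0.45 with group means removed). Of the 5 hepatocyte markers 4 rose and 1 fell at that dose, with sums of 85307 to 98618 TPM against 67009 to 80193 TPM with vehicle, and the sum had r of -0.70 with Gsta1 and -0.61 with Gstm3. With group means removed these were -0.23 and -0.05, beside 0.61 and 0.61 for the stellate sum. All 3 tested adipocyte markers fell, with median sums of 189 and 74.4 TPM, and the sum had r of 0.59 with Gsta1 and 0.48 with Gstm3 (0.26 and 0.20 with group means removed). These points share libraries and depth, and the part of any of these cell types in the falls was not tested.

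**Figure D3:**
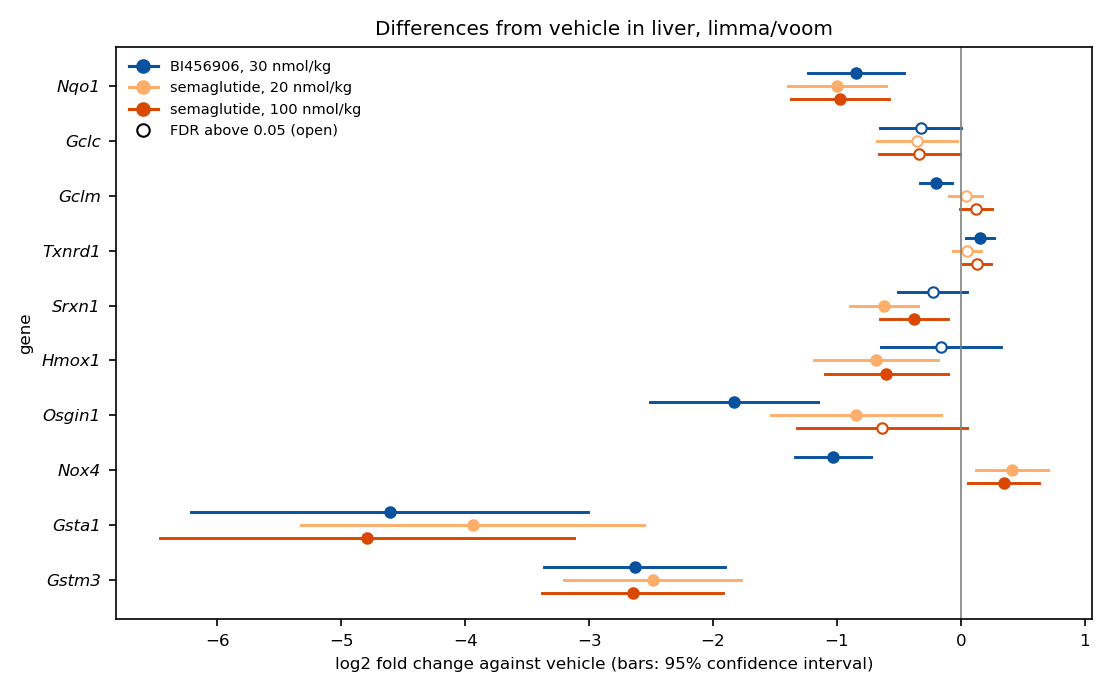
Log2 fold change against vehicle in liver for each gene with 30 nmol/kg BI456906 and with 20 and 100 nmol/kg semaglutide, from limma/voom over all tested genes. Bars are 95% confidence intervals, and open points have an FDR above 0.05. The intervals of the compounds lie on opposite sides of 0 for Nox4, and overlap for Nqo1, Gsta1 and Gstm3.

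Over the other groups in liver, 2 of the 10 genes passed at 3 nmol/kg BI456906 (Gsta1 and Gstm3, 13.4% of all genes passing), 5 at 10 nmol/kg (37.5%) and 5 at 20 nmol/kg (45.9%), all of them falls. With semaglutide 7 passed at 20 nmol/kg (46.5% of all genes) and 6 at 100 nmol/kg (48.2%), each time with Nox4 as the 1 rise. On a straight line over vehicle and the 4 doses of BI456906, 7 genes passed against 58.9% of all genes: Gsta1 (-1.30 on the log2 scale per 10 nmol/kg), Gstm3 (-0.77), Osgin1 (-0.52), Nox4 (-0.36), Nqo1 (-0.23), Gclm (-0.07) and Txnrd1 (0.04). The Gclm line did not pass on the log2(TPM + 1) scale (FDR 0.252). Counted in both directions, the shares of the 10 at the lower doses were near those of all genes. Of all 15964 genes, 787 fell at 3 nmol/kg, 2891 at 10 nmol/kg and 3657 at 20 nmol/kg. Falls alone were thus a larger share of the 10 than of all genes at these doses.

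The compounds were set against each other in 3 comparisons per tissue, over the same 10 genes in liver, with FDRs adjusted over all genes tested. Doses matched in 1 of them, 20 nmol/kg, in the amount injected but not in exposure. Late in treatment the study measured higher plasma levels of BI456906 than of semaglutide at that dose. There Nox4 was the only one of the 10 to pass (2.42% of all genes did): its 6 values with BI456906, 8.07 to 10.2 TPM, all lay below the 6 with semaglutide, 14.7 to 17.6 TPM. The difference was -0.93 (95% interval -1.22 to -0.64, limma/voom FDR 0.00012), and it passed under every alternative, between -0.99 and -0.84. Osgin1 differed by -0.26 at that dose, with an interval of -0.93 to 0.40, which holds both no difference and a fall of the size seen for Nox4. For Gsta1, Gstm3, Hmox1 and Nqo1 the intervals were also wide, from -2.13 to 1.65, from -0.26 to 1.32, from -0.36 to 0.67 and from -0.14 to 0.72. Gclc, Gclm and Txnrd1 were held within narrower intervals, from -0.19 to 0.45, from -0.20 to 0.06 and from -0.04 to 0.19. The Srxn1 interval, 0.05 to 0.60, lay above 0, but its FDR over all genes was 0.239.
At unequal doses, 30 nmol/kg BI456906 stood below 100 nmol/kg semaglutide for Nox4 (-1.38, SE 0.15), Osgin1 (-1.20, SE 0.33, limma/voom FDR 0.0170) and Gclm (-0.32, SE 0.06, FDR 0.0010), with 9.75% of all genes passing. The Osgin1 call was lost without semaglutide library 2 (FDR 0.0596). Against 20 nmol/kg semaglutide, 4 of the 10 passed (13.6% of all genes): Nox4 (-1.45), Osgin1 (-0.99, FDR 0.0394), Gclm (-0.24, FDR 0.0113) and Srxn1, which was higher by 0.39 (FDR 0.0498). Of these, Osgin1 and Srxn1 were each lost when any 1 of 9 libraries was left out. On the log2(TPM + 1) scale the Gclm calls were lost, against 100 nmol/kg (FDR 0.0684) and 20 nmol/kg (FDR 0.147). The doses differ in these 2 comparisons, and the exposures in that at 20 nmol/kg, so each sets groups side by side, not the compounds.

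The other genes of the pathway were taken from a list of 75, of which 69 were tested in liver. At 30 nmol/kg BI456906, 44 fell and 9 rose, with a median log2 fold change of -0.41, where 29.9% of all tested genes fell, 28.9% rose and the median was -0.03. Nfe2l2, the gene of NRF2, fell by 0.65 on the log2 scale, with 49.99 ± 5.94 TPM in vehicle and 33.3 ± 1.83 TPM in treated libraries (SD, n = 6 each, limma/voom FDR 1.27e-07). Keap1, its cytosolic anchor, was at 29.6 and 31.6 TPM and did not pass (0.04, FDR 0.522). Bach1, the repressor, rose by 0.49 (FDR 0.000809).
By role, all 5 genes of NADPH supply fell, with Tkt, a transketolase of the pentose phosphate pathway, down from 78.2 to 36.9 TPM (-1.16). The G6pdx call was lost without any 1 of 8 libraries, with FDRs up to 0.0838. Of 8 other glutathione S-transferases 6 fell, led by Gsta2 (-1.45). The calls of Gsta3, Gsta4 and Gstm6 were each lost without either of 2 libraries, with FDRs up to 0.0713, 0.0660 and 0.0866. Of 8 superoxide dismutases, catalase and glutathione peroxidases 7 fell, led by Gpx7 (-1.91, from 2.12 to 0.58 TPM) and Gpx4 (-1.08), the peroxidase that reduces lipid hydroperoxides. The Sod1 call was lost without 1 library (FDR 0.0621). Of 9 genes of conjugation, reduction and export 6 fell and 3 rose, among them the exporters Abcc3 (-1.18) and Abcc2 (1.00), the carbonyl reductases Cbr3 (-1.09) and Cbr1 (0.69), and Abcc4 (0.25, FDR 0.0451), whose call was lost without any 1 of 8 libraries, with FDRs up to 0.135, and with library size scaling (FDR 0.164). Of 8 tested NADPH oxidase subunits 6 fell. The Rac2 call was lost without any 1 of 8 libraries (FDRs up to 0.121), and that of Ncf4 without any 1 of 4 (FDRs up to 0.0828). Among the rest, the metallothioneins Mt1 (2.92) and Mt2 (4.10), small metal-binding proteins, rose most, Mt1 from 292 to 2201 TPM.
Of 64 list genes with a RefSeq window, 16 (25%) held the element core, beside 13.99% of 27025 symbols overall.

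Over the 42 liver libraries, the genes outside the set whose log2 level followed Osgin1 most closely, of 15954, included Fbxo21 (Pearson r 0.88), Cldn2 (0.85), Lipa (0.84) and Commd7 (0.84). For Nox4 the closest 5 were Mup19 (0.93), Col27a1 (0.89), 2310001H17Rik (0.88), Gm10319 (0.87) and Mup15 (0.86). The Mup genes are near-identical copies of one family whose reads are hard to assign. These points share libraries, groups and depth. Within the set, Osgin1 had r of 0.67 with Gclm and 0.66 with Gclc, and Nox4 had r of 0.68 with Gclm. With group means removed these were 0.67, 0.75 and 0.39.

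In eWAT, few of the 9 tested genes passed in any group. At 30 nmol/kg BI456906 2 passed (23.9% of all genes did), Nox4 with a rise and Gstm3 with a fall. No gene of the set passed at 3 nmol/kg (0.00539% of all genes passing) or 10 nmol/kg (0.513%), 2 did at 20 nmol/kg (4.27%), none with 20 nmol/kg semaglutide (6.33%) and 1 with 100 nmol/kg (14.9%). On the line over doses 3 passed (29.5%). None passed between the compounds, where 0%, 0.0108% and 0% of all genes did, at 20 against 20, 30 against 100 and 30 against 20 nmol/kg.

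Nox4 was the gene of the set that rose in eWAT. Its values were 2.47, 4.63 and 6.03 TPM with vehicle and 5.33, 6.62 and 7.59 TPM with 30 nmol/kg BI456906, with overlapping ranges. The rise was 0.57 (SE 0.14, limma/voom FDR 0.00402) and stood under every alternative, between 0.40 and 0.67. At 20 nmol/kg the values were 5.78, 6.29 and 8.05 TPM and the rise 0.52 (FDR 0.0320), lost when any 1 of 6 libraries was left out, with FDRs up to 0.121 (without vehicle library 3). With 20 and 100 nmol/kg semaglutide Nox4 means were 5.60 and 4.89 TPM, and neither passed. The summed fibroblast markers were also higher at 30 nmol/kg, at 2096 to 2597 TPM against 1332 to 1987 TPM with vehicle. Of those 5 markers 1 rose in the test at that dose. At 20 nmol/kg and with each semaglutide dose 1 fell, though the median sum was above that of vehicle in every treated group. Over the 42 eWAT libraries the sum had r of 0.49 with Nox4, or 0.32 with group means removed. The part of fibroblasts in the Nox4 rise was not tested.

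Osgin1 was less abundant in eWAT than in liver, at 8.15, 14.1 and 20.9 TPM with vehicle. With 30 nmol/kg BI456906 it was at 7.5, 8.76 and 13.3 TPM, a difference of -0.53 (95% interval -0.96 to -0.11, limma/voom FDR 0.0608). The interval lay below 0, while the FDR over all genes missed the threshold. It passed without 30 nmol/kg library 5 (FDR 0.0213) or without vehicle library 5 or 6 (FDRs 0.0210 and 0.0298), and by edgeR (FDR 0.0408) and DESeq2 (FDR 0.0297). With sample quality weights the difference was -0.82 (FDR 0.000547). On the line over doses it passed, at -0.16 per 10 nmol/kg (FDR 0.0432), but not without any 1 of 14 libraries, with FDRs up to 0.0952, nor without the vehicle group (FDR 0.205).

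Gstm3 and Gsta1 reads were scarce in eWAT. Gstm3 had 0 to 57 reads per library with vehicle, 0 to 1 at 20 nmol/kg BI456906, 0 to 10 at 30 nmol/kg and 0 to 8 with 100 nmol/kg semaglutide. The 3 comparisons passed (FDRs 0.0211, 0.0217 and 0.0346), but the fitted size rests on the pseudocount at such levels. The first was lost without library 5 or 6 of its treated group (FDRs 0.0591 and 0.0543), the second without library 1 or 2 of its treated group (FDRs 0.0501 and 0.0508), and the third without any 1 of 9 libraries, with FDRs up to 0.0836. Without vehicle library 1, Gstm3 also passed at 3 nmol/kg (FDR 0.0344), at 10 nmol/kg (FDR 0.00600) and with 20 nmol/kg semaglutide (FDR 0.000716). The vehicle group also had the highest median of summed hepatocyte markers, 1512 TPM. Over 42 libraries Gstm3 had r of 0.74 with the summed hepatocyte markers (rho 0.57), and the vehicle library with the lowest sum, replicate 1 at 20.2 TPM, had 0 Gstm3 reads. The part of hepatocyte RNA in these falls was not tested. Gsta1 had 2 to 27 reads with vehicle and 0 to 2 at 30 nmol/kg BI456906.

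The 6 classic targets did not pass in any eWAT group. Hmox1 was the most abundant of the set there, at 110, 269 and 343 TPM with vehicle and 135, 151 and 447 TPM with 30 nmol/kg BI456906, a difference of -0.23 with a wide interval of -1.01 to 0.56. Srxn1 was at 39.9, 79.2 and 128 TPM with vehicle and 41.8, 55.5 and 152 TPM at that dose. The highest eWAT group means were at 10 nmol/kg BI456906 for Nqo1 (8.03 TPM), Gclc (23.4 TPM), Gclm (126 TPM), Txnrd1 (124 TPM) and Srxn1 (140 TPM), and with 100 nmol/kg semaglutide for Hmox1 (409 TPM). These groups were spread widely, the 6 values of Gclm at 10 nmol/kg running from 54.5 to 247 TPM.

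These genes went up and down together from library to library in eWAT. Among Nqo1, Gclc, Gclm, Txnrd1, Srxn1, Hmox1 and Osgin1, all 21 pairs had a Pearson r over 0.5 across 42 libraries, computed like all such r on log2 values, from 0.61 to 0.99 with a median of 0.84. In liver the same 21 pairs ran from -0.32 to 0.67 with a median of 0.14, and 4 were over 0.5. With group means removed the eWAT median was 0.88 and the liver median 0.17. The summed macrophage markers, which spanned 3109 to 11300 TPM in eWAT, had r of 0.93 with Hmox1 (rho 0.93, and 0.92 without the 2 libraries farthest from the median sum), 0.89 with Txnrd1, 0.88 with Srxn1, 0.80 with Gclm, 0.74 with Osgin1, 0.71 with Gclc and 0.67 with Nqo1. For Nox4 the value was -0.11. The summed adipocyte markers, 10395 to 33542 TPM, moved the other way, with r of -0.91 with Hmox1, -0.84 with Txnrd1, -0.80 with Srxn1, -0.77 with Gclm, -0.73 with Gclc, -0.72 with Osgin1 and -0.62 with Nqo1, and 0.15 with Nox4. None of the 6 macrophage markers passed at any dose in eWAT. These are descriptions over libraries that share RNA input, run and groups, and the part of macrophage or adipocyte content was not tested.

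**Figure D4:**
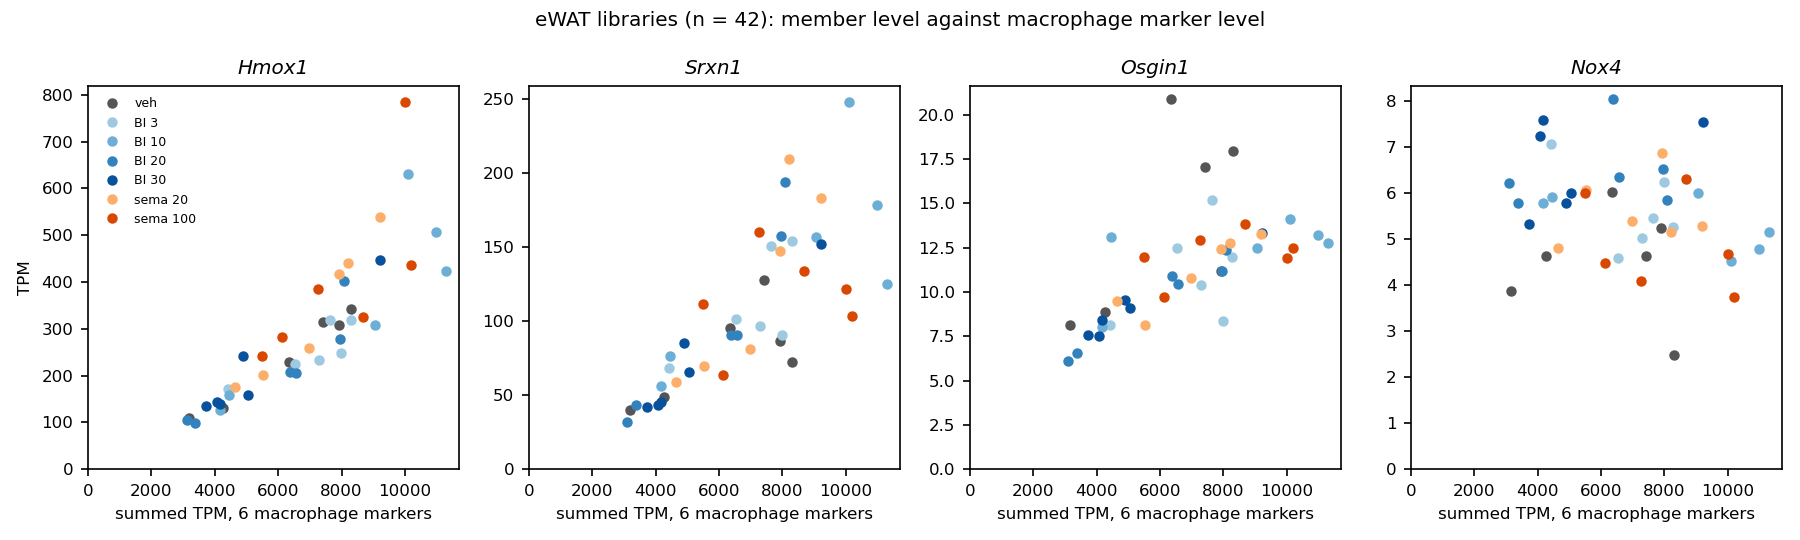
Level of Hmox1, Srxn1, Osgin1 and Nox4 in the 42 eWAT libraries (TPM) against the summed TPM of 6 macrophage markers in the same library, coloured by group. Over all 42 libraries Hmox1 climbs with the marker sum (r = 0.93) and Nox4 does not (r = -0.11).

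Of the other pathway genes 72 were tested in eWAT, and at 30 nmol/kg BI456906 8 rose and 11 fell. Of all genes 23.9% passed there, so 19 of 72 was near the share of all genes. The median log2 fold change was -0.05 for the list and -0.03 for all genes. The rises were led by Mt2 (1.24), Mt1 (1.20), Gpx3 (1.09), a secreted glutathione peroxidase made in fat, and Gsta4 (1.09), which conjugates lipid aldehydes. They also held Maff (0.50), a small MAF partner, and Sod1 (0.32). The Maff call was lost without any 1 of 6 libraries, with FDRs up to 0.103 (without vehicle library 3), and with log2(TPM + 0.1) (FDR 0.0513). The falls were led by Abcc2 (-2.93), a transporter typical of hepatocytes that was at 3.69 ± 2.98 TPM with vehicle, and by Me1 (-0.73) and G6pdx (-0.68), which supply NADPH for lipid synthesis as well. Sod3 (-0.58), Slc48a1 (-0.54) and Abcc3 (-0.53) followed. The Sod3 call was lost without any 1 of 6 libraries, with FDRs up to 0.160 (without vehicle library 5), and on 4 other settings (FDRs 0.0639 to 0.0745). That of Abcc2 was lost without 30 nmol/kg library 1 (FDR 0.0508). Nfe2l2, Keap1 and Bach1 did not pass, at -0.04, -0.01 and 0.07. None of the 10 tested NADPH oxidase subunits passed there.

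The difference between the tissues was tested in 1 fit of all 84 libraries over the 15297 genes kept in both, as the effect of 30 nmol/kg BI456906 in liver minus that in eWAT. It passed for 2 of the 9 genes, with 45.9% of all genes passing. Nox4 had the larger value, -1.71 (SE 0.22, limma/voom FDR 1.35e-09), made of a fall in liver and a rise in eWAT, and it ranged from -1.81 to -1.31 over the alternatives. For Osgin1 the value was -1.41 (SE 0.44, FDR 0.00657), and it missed the threshold with no filter on low reads (FDR 0.0520). For Nqo1 it was -0.86 (FDR 0.0534). The other 6 genes did not pass, with the widest interval, -1.65 to 3.38, for Gstm3.

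**Figure D5:**
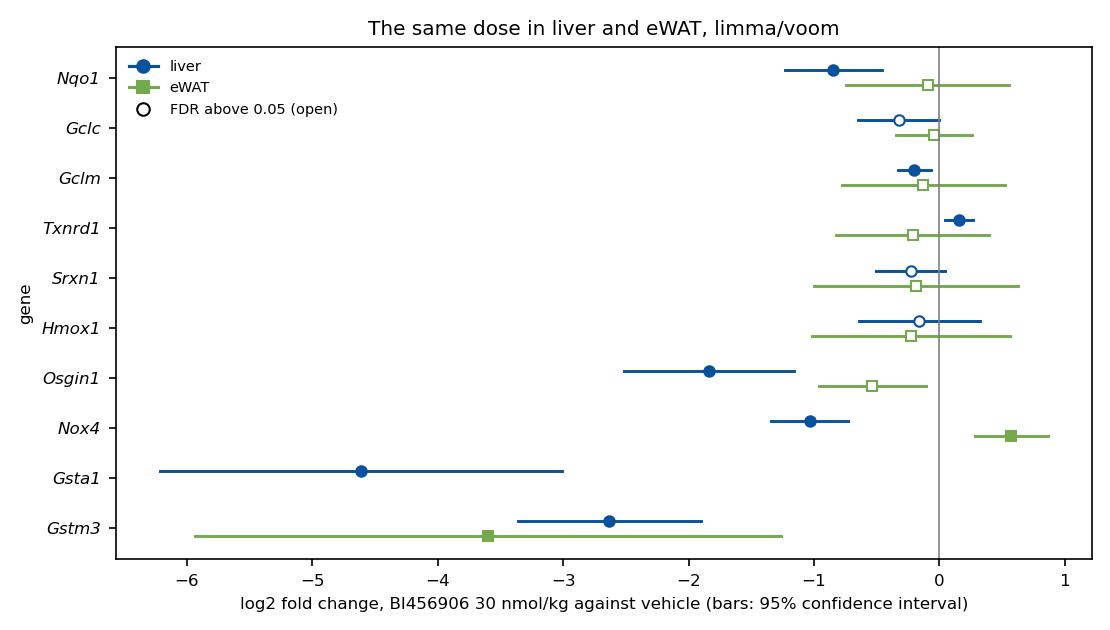
Log2 fold change of each gene with 30 nmol/kg BI456906 against vehicle in liver (circles) and eWAT (squares), from limma/voom. Bars are 95% confidence intervals, open points have an FDR above 0.05, and Gsta1 was not tested in eWAT. Nox4 lies at -1.03 in liver and 0.57 in eWAT, while Gstm3 lies below -2 in both. The eWAT value of Gstm3 rests on few reads and ran from -4.59 to -0.77 over the alternatives.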

How the data were processed

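Bulk RNA-seq libraries of liver and eWAT, 42 per tissue, were analysed from the authors' gene tables. Per the labels, STAR 2.5.2b, RSEM 1.3.0, featureCounts 1.5.1 and FastQC 0.11.5 were used with mm10/GRCm38. The annotation is not given in the sources used here. The labels describe SMART-Seq v4 single-end libraries and the study's methods describe a directional poly(A) kit with paired-end reads, so whether counting used strand is unclear.

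The deposited read signal is the authors' read count per gene divided by 1 factor per library. Dividing by each column's smallest nonzero value gave whole numbers (tolerance 0.001) for 100% of values. The limma/voom fits used the deposited scaled values, in which 1 read counted as 0.83 to 1.99 in liver. The recovered whole reads were used for edgeR, DESeq2 and the read numbers given. The design had been written for raw counts. Levels are the deposited TPM of the authors, given as lowest, median and highest of a group or as mean ± SD. No column was left unused.

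As in the study, limma/voom was run, here with limma 3.58.1, R 4.3.3, TMM from edgeR 4.0.16, a pseudocount of 0.5 and filterByExpr. Each tissue had 1 fit of 7 groups, with Benjamini-Hochberg adjustment over all genes kept and a threshold of 0.05. The study's added cut-off of 1 on the absolute log2 fold change was not applied. Fold changes of scarce genes depend on the pseudocount. Alternatives were library size or RLE scaling, no filter, a scaled value of at least 10 in every library, sample quality weights, log2(TPM + 1) and log2(TPM + 0.1). The others were edgeR quasi-likelihood and DESeq2 1.42.0 on the recovered reads, and leaving out each library. Leave-outs outside 30 nmol/kg against vehicle were added after seeing the data, and those of 3 nmol/kg libraries were not run.

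Simulated data, built on the recovered reads, had 200 genes per tissue changed in the 30 nmol/kg BI456906 group alone. Against vehicle in liver, 78 of 100 genes changed by 1 (log2) and 57 of 100 changed by 0.5 were recovered. There were 7 false calls among 15964 genes. In eWAT it was 55 of 100 and 45 of 100, with 3 false calls among 18536 genes. In the data themselves 9384 genes passed in liver and 4432 in eWAT, so these rates do not carry over to them.

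The genes and lists were chosen with earlier results of these data known. All 10 were described. Of the 75 pathway genes, the 6 largest rises and falls per tissue at 30 nmol/kg were named, with Nfe2l2, Keap1 and Bach1, and 5 genes most correlated with Osgin1 and with Nox4 in liver, of which 1 is not reported here. Shared transcript windows were counted in GENCODE M21.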

Additional observations from a re-analysis of the deposited data

Results flagged for a closer look

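Groups of 6 libraries were searched for a highest or lowest value set apart from the other 5 by more than 0.625 of the group's range. Of 133 groups 18 had one. About 1 in 20, or 6.65 groups, would be expected if all values were independent and normal. TPM need not be normal, the genes share libraries and correlate, and Gstm3 in eWAT had few reads. The 18 can therefore not be judged against 6.65. In liver, the libraries set apart were vehicle replicate 6 for Gclm (117.69 TPM, the others 138 to 150), 100 nmol/kg semaglutide replicate 3 for Srxn1 (33.12 TPM, the others 17.4 to 20.8), replicate 4 for Hmox1 (23.41 TPM) and replicate 6 for Gsta1 (3.72 TPM). Among the BI456906 groups they were 10 nmol/kg replicate 2 for Hmox1 (73.62 TPM, the others 13.7 to 25.02), 20 nmol/kg replicate 5 for Osgin1 (29.89 TPM, the others 58.7 to 73.5), 20 nmol/kg replicate 3 for Nox4 (10.23 TPM), 30 nmol/kg replicate 1 for Nox4 (7.13 TPM, the others 5.55 to 6.09) and 3 nmol/kg replicate 1 for Gstm3 (52.82 TPM).

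In eWAT they were 10 nmol/kg replicate 6 for Nqo1 (16.37 TPM, the others 5.15 to 8.18), replicate 1 for Osgin1 (8.0 TPM) and replicate 3 for Gstm3 (0.87 TPM), 20 nmol/kg replicate 4 for Nox4 (8.05 TPM) and replicate 2 for Gstm3 (0.03 TPM, the others 0), 30 nmol/kg replicate 5 for Hmox1 (447.02 TPM) and Osgin1 (13.34 TPM), replicate 3 for Gstm3 (0.36 TPM), and 100 nmol/kg semaglutide replicate 4 for Hmox1 (784.78 TPM, the others 243 to 436).

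The effect of 30 nmol/kg BI456906 differed between liver and eWAT, in a test of the difference itself by limma/voom, for Nox4 (-1.71) and for Osgin1 (-1.41).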

How the results depend on the processing

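Values of single genes under an alternative were counted for every gene at 30 nmol/kg BI456906 against vehicle. In other comparisons they were counted only for genes passing there, so a gain could not be seen. Leaving out 1 library entered as its lowest and highest fold change alone. The split is therefore not a rate over all calls. Of 618 such values, 562 kept direction and side of the threshold, 44 lost the call, 7 gained it and 5 changed sign. Those 5 were eWAT differences at 30 nmol/kg BI456906 near 0: Nqo1 under edgeR (0.022), DESeq2 (0.029) and leaving out 1 library (-0.258 to 0.032), and Gclc under library size scaling (0.013) and leaving out 1 library (-0.103 to 0.034). The calls of Gsta1, Gstm3, Osgin1, Nox4 and Nqo1 at 30 nmol/kg in liver held under every alternative in which they were tested. Gsta1 was not tested when a scaled value of at least 10 was required in every library.

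Counts of genes passing moved by over 1.5 times as follows, and apart from genes dropped by a filter the cause was not tested. In liver at 3 nmol/kg, 2 became 1 with a scaled value of at least 10 required in every library, which drops Gsta1. It also became 1 with log2(TPM + 1) and with log2(TPM + 0.1), and 1 to 2 when 1 library was left out. With 30 nmol/kg BI456906 against 20 nmol/kg semaglutide, 4 became 2 with no filter, 1 on either TPM scale, and 2 at fewest with 1 library left out. With 100 nmol/kg semaglutide, 6 became 3 at fewest with 1 library left out. In eWAT, a scaled value of at least 10 in every library, which drops Gstm3, left 1 at 20 nmol/kg, 1 at 30 nmol/kg and 0 with 100 nmol/kg semaglutide. Sample quality weights gave 1 at 10 nmol/kg, 1 with 20 nmol/kg semaglutide, 6 on the line over doses, 7 and 3 for 30 nmol/kg BI456906 against 100 and 20 nmol/kg semaglutide, and 30 other pathway genes in place of 19. The log2(TPM + 1) scale gave 1 at 10 nmol/kg. With 20 nmol/kg semaglutide each TPM scale, edgeR and DESeq2 gave 1 in place of 0, and DESeq2 gave 1 for 30 against 100 nmol/kg. Without vehicle the line gave 0. Leaving out 1 library gave up to 1 at 3 and 10 nmol/kg, with 20 nmol/kg semaglutide and for 30 against 100 nmol/kg, and down to 0 at 20 nmol/kg, 1 at 30 nmol/kg, 0 with 100 nmol/kg semaglutide and 1 on the line. Of these, the eWAT gains at 3 and 10 nmol/kg and with 20 nmol/kg semaglutide were Gstm3 without vehicle library 1, and that for 30 against 100 nmol/kg was Hmox1 without 30 nmol/kg library 5 (FDR 0.0396). Between tissues, no filter left 1 in place of 2. No paired analysis was possible because the labels number every library differently and link none across groups or tissues.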
